A study of Mus musculus with 4 samples.

Results

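Old dWAT was set against young dWAT in telogen, the resting phase of the hair cycle, over 10423 genes of 22913 listed. These were the genes with a level of 5 or more in either the OTD library (old mice, telogen, dWAT) or the YTD library (young mice, telogen, dWAT), of which 10214 have a gene symbol. Level here means the FPKM (fragments per kilobase of a gene per 1000000 mapped fragments) of the gene once the mitochondrial chromosome was left out and the rest of the library was rescaled to a sum of 1000000. The change of a gene is log2(level + 1) in OTD minus the same in YTD, a scale that shrinks the change of genes with low levels, and a gene counts as higher or lower when this is at least 1 in size. The study took dWAT of C57BL/6 mice by microdissection from skin in telogen and in depilation-induced anagen, the growth phase, and gave 1 library to each of OTD, YTD, OAD (old mice, anagen) and YAD (young mice, anagen). By the treatment text of the labels and the study's text, old mice were 18 months and young mice 2 months of age. The age field of the labels gives 18 months for YTD too and 2 months for OAD, and the group names and treatment text were followed here. All groups are of 1 inbred strain with no transgene, and each library holds tissue pooled from several mice. Since each group is a single library, values come without an error, no test between ages can be made, and each difference is one between 2 libraries.

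dWAT is the fat layer between the dermis and the sheet of skin muscle called the panniculus carnosus, and it surrounds the lower ends of hair follicles (HFs). Its lipid-filled adipocytes share the layer with fat progenitors and fibroblasts, blood and lymph vessels, nerves and immune cells, and in rodents the layer thickens as HFs grow and thins as they rest. Macrophages in fat take up lipid and cell debris through their lysosomes, fibroblasts make its collagen and proteoglycan matrix, and mast cells and vessels run through both. Bulk RNA from such a layer is a mixture, so a lower number of cells of a type and less RNA per cell cannot be told apart.

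The labelled tissue was checked against marker lists. Adipocyte markers were high in both libraries, with a summed level over 22 genes of 23899 in OTD and 19047 in YTD. The level of Adipoq, the adipocyte hormone adiponectin, was 723 in OTD and 407 in YTD, and that of Plin1, a coat protein of the lipid droplet, was 147 in OTD and 101 in YTD. These genes, Acta1 and Krt10 are outside the rule for named genes and were chosen after their values were seen. Skeletal muscle markers were higher still. The 55 genes of 3 muscle lists held 15.3% of the summed level in OTD and 20.8% in YTD, against 3.18% in OAD and 2.74% in YAD, and the gene with the highest level was Acta1, skeletal muscle actin, with 30462 in OTD and 39857 in YTD. The study's text says that subcutaneous fat and the panniculus carnosus were removed and that dWAT was scraped from the lower ends of HFs, so muscle genes at these levels go against a layer free of muscle. Genes of the mitochondrial chromosome held 52.7% of the deposited FPKM in OTD and 44.7% in YTD. The part of muscle and of mitochondrial RNA in the differences between OTD and YTD was not tested, and the values with other scalings stand beside the counts they move.

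Of the 10423 genes, 643 differed by at least 1 on the log2 scale, which is 6.17%. These were 471 genes higher in OTD, 4.52% of those that passed, and 172 genes lower in OTD, 1.65% of them. A change of 2 or more in size was found for 39 higher and 12 lower genes. The middle of the distribution lay above 0, with a median of 0.12 and quartiles of -0.17 and 0.44, so the median of a list of genes is to be read against 0.12. Most genes differed little, and 69.8% of them lay within 0.5 of no change. Just inside and just outside the fold, the changes were 1.0021 and 0.9994 on the higher side and -1.0015 and -0.9996 on the lower side.

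How many genes passed the fold on each side depended on the scaling. With the FPKM as deposited, the filter of 5 was applied to those values too, and 8952 genes passed in place of 10423. Of these, 204 genes were higher and 252 lower, so that 44.7% of the genes past the fold were higher in place of 73.3%. That filter alone, with the rescaled levels kept, gave 379 higher and 151 lower genes, or 71.5% higher. Scaled so that the median ratio of OTD to YTD was 1, there were 313 higher and 266 lower genes, or 54.1% higher. Leaving out the muscle lists before rescaling gave 425 higher and 247 lower genes, or 63.2% higher, and taking the median change away from every gene gave 340 higher and 252 lower genes, or 57.4% higher. The median change of all genes was -0.11 with the deposited FPKM and -0.03 with the median of ratios. All 204 genes higher under the deposited FPKM were among the 471.

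The higher genes made up 3.12% of the summed level in OTD and 1.22% in YTD, and the lower genes 0.681% and 1.71%. A filter met in either library lets a gene in through the library where it is high, and 189 of the 471 higher genes reached a level of 5 only in OTD, as 57 of the 172 lower genes did only in YTD. Set among all 4 libraries, OTD had the highest level for 397 of the 471 higher genes, and YTD had the lowest for 150 of them. For the 172 lower genes, YTD was the highest library for 126 and OTD the lowest for 65. The choice of genes favours these counts, since a higher gene cannot have OTD lowest or YTD highest, and a lower gene the reverse. The same counts over all 10423 genes were not made. The plot of change against level shows the scatter of the genes around their median.

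**Figure D1:**
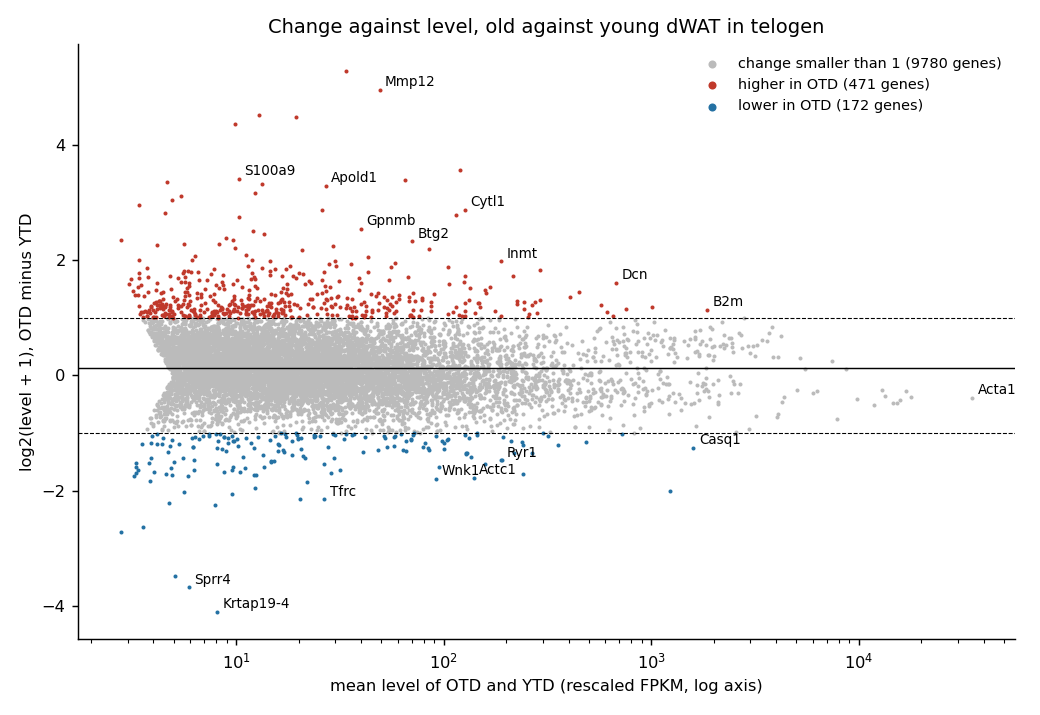
Change of each of the 10423 genes (log2(level + 1), OTD minus YTD) against the mean level of the 2 libraries on a log axis, each point 1 gene, with dashed lines at 1 and -1 and a solid line at the median of 0.12. The 471 genes higher in OTD (red) lie above the upper dashed line and the 172 lower ones (blue) below the lower one, while Acta1, the gene with the highest level, lies between them at -0.39.

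Leaving aside cytokine and AP-1 genes, predicted genes and loci outside the annotation, the largest difference was in Mmp12, macrophage elastase, on chr9:7344381-7369499, with a level of 96.0 in OTD and 2.13 in YTD (45.0-fold higher, a log2 change of 4.95). S100a9, a subunit of the calcium-binding protein calprotectin of neutrophils and stressed keratinocytes, had a level of 19.7 in OTD and 0.952 in YTD, a change of 3.41. Egr1, a transcription factor induced within minutes of many stimuli, had 120.2 in OTD and 10.5 in YTD, a change of 3.39. S100a9 was near the bottom of the range in YTD, where 3 fragments would give a level of about 0.669 by the estimated depth. For Mmp12 that level was 0.161, so it was low in YTD but above the bottom of the range. Egr1 was well measured in both libraries.

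Apold1, an endothelial gene of the early response, had a level of 49.8 in OTD and 4.20 in YTD (change 3.29), and Prr14l had 22.95 in OTD and 1.68 in YTD (change 3.16). Npy, the appetite and vessel-constricting neuropeptide Y, was at 9.52 in OTD and 0.279 in YTD (change 3.04). Its value in YTD was under the level of 0.778 that 3 fragments would give, so the size of its change is uncertain. Cytl1, a small secreted protein on chr5:37735519-37739820, stood out by its level in OTD, with 224 in OTD and 29.7 in YTD (change 2.87). The remaining genes among the 15 largest differences were Plac9b (18.8 in OTD and 1.94 in YTD), Gpnmb, Clec7a, Nr4a2, Tnfaip6, Has1, Btg2 and Plac9a (14.3 in OTD and 2.15 in YTD). Plac9a and Plac9b are near-identical neighbours on chromosome 14 whose reads can be shared between them, so their separate values are uncertain.

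Among genes with a level of 100 or more in either library, the 8 largest differences were those of Egr1, Cytl1, Btg2, Ccn1, Inmt, Zfp36, Apod and Ctss. Inmt, an enzyme that methylates indole amines, had 303 in OTD and 76.0 in YTD (3.99-fold higher). Apod, the lipid carrier apolipoprotein D, had 333 in OTD and 100.3 in YTD (3.32-fold higher). Ccn1, a matrix protein that binds integrins, had 140.4 in OTD and 30.04 in YTD (4.67-fold higher). For Inmt and Apod both anagen libraries lay below both telogen libraries, with 19.6 in OAD and 16.2 in YAD for Inmt and 77.7 in OAD and 68.8 in YAD for Apod.

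**Figure D2:**
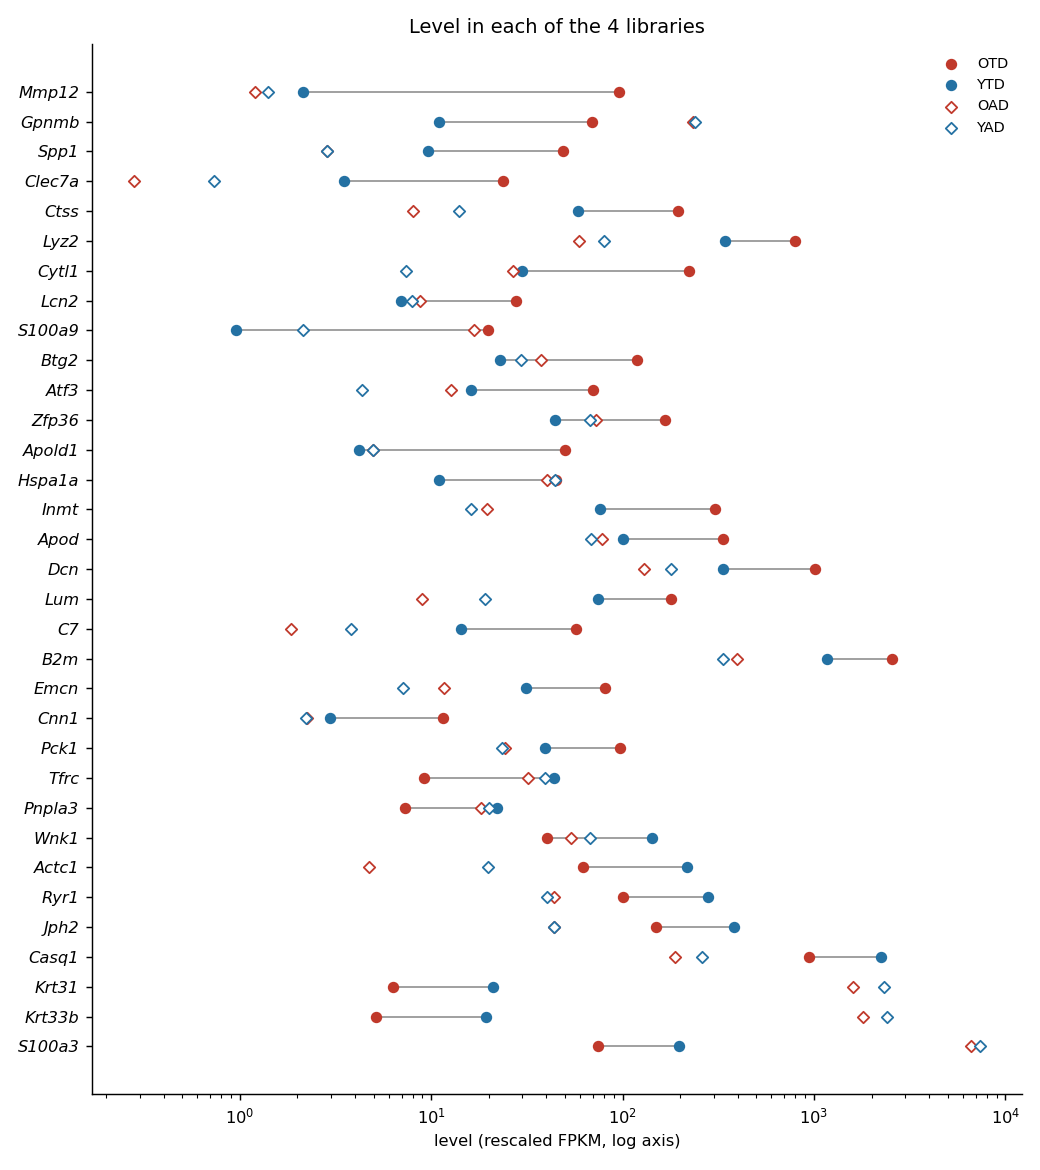
Level (rescaled FPKM, log axis) of named genes in OTD (filled red), YTD (filled blue), OAD (open red diamonds) and YAD (open blue diamonds), with a line joining the 2 telogen libraries. For Mmp12 the 3 other libraries lie between 1.20 and 2.13 and OTD at 96.0, and for the hair keratins Krt31 and Krt33b both anagen libraries lie far above both telogen libraries.

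For every list of genes, the share of its members past the fold is to be read against 6.17% and its median against 0.12, the values over all genes. In brackets after a count stand that share and, after "as deposited", how many of the same members were past the fold with the FPKM as deposited. Among the genes that the rule names, those described here that were past the fold after the rescaling but not with the FPKM as deposited were Aqp1, B2m, Cd83, Cldn5, Cpt1a, Dkk3, Ecm2, Fgf7, H2-Aa, H2-M3, H2-Q7, Hdc, Ifit2, Iigp1, Lipa, Lyz2, Pi16, Prdx4, Selenop, Sfrp4, Slc2a3, Soat1, Sox10, Tek, Tshr and Xaf1.

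Of the lists with at least 6 genes that passed, the AP-1 list left aside, early response genes had the highest median. They are switched on within minutes by growth factors or stress and code for transcription factors and for the phosphatases and RNA-binding proteins that shut the response down. Of 27 genes matched outside the AP-1 family, 25 passed and were above 0, with 21 past the fold (84%, as deposited 18), all higher in OTD, and a median change of 1.49 against 0.12 for all genes. Atf3, a stress-induced transcription factor, had a level of 70.5 in OTD and 16.2 in YTD (change 2.05). Nr4a2, an orphan nuclear receptor, had 15.7 in OTD and 2.21 in YTD (change 2.38). Btg2, which slows cell division, had 119 in OTD and 22.8 in YTD (change 2.33). Zfp36, which speeds the decay of cytokine mRNAs, had 166 in OTD and 44.2 in YTD (change 1.89). Summed over the list, the level was 2272 in OTD and 910.5 in YTD.

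Where OTD and YTD stood among the 4 libraries differed from gene to gene in this list. For Btg2 and Zfp36, YTD was the lowest library, with 37.6 in OAD and 29.4 in YAD for Btg2 and 73.1 in OAD and 68.0 in YAD for Zfp36. Atf3 was lower in both anagen libraries than in YTD (12.7 in OAD and 4.37 in YAD). Egr1 had 76.1 in OAD and 61.9 in YAD, so that YTD was the library that stood apart at 10.5.

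Promoter sequence of a few genes is shown because 2 elements bound by factors of the early response, the cyclic AMP response element (TGACGTCA) and the serum response element (the CArG box), lie in them. The genes were chosen after their values were seen. Sequences are from RefSeq promoters of GRCm38.p6, 80 bases each, 5′ to 3′ on the strand of the gene, with the element in capitals. Btg2 is on chr1:134079278-134079357, Dusp1 on chr17:26508572-26508651, Has1 on chr17:17855228-17855307, Zfp36 on chr7:28379242-28379321, Pnpla3 on chr15:84167734-84167813, Actc1 on chr2:114052878-114052957 and Acta1 on chr8:123894804-123894883. All are on the minus strand but Pnpla3, which is on the plus strand.
Btg2: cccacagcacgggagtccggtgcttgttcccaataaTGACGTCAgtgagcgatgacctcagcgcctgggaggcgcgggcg
Dusp1: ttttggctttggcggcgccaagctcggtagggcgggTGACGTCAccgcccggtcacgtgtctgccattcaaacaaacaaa
Has1: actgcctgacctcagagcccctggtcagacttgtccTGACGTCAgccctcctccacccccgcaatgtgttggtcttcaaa
Pnpla3: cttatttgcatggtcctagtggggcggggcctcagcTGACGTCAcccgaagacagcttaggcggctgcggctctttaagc
Zfp36: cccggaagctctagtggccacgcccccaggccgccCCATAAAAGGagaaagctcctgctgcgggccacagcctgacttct
Actc1: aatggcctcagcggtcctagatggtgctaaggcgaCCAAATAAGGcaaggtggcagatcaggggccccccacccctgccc
Acta1: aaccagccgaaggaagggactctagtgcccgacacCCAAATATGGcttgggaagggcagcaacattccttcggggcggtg

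The last base of the element lay 159 bases before the start site in Btg2, 136 in Dusp1, 76 in Has1, 39 in Pnpla3, 49 in Zfp36, 38 in Actc1 and 64 in Acta1. Of these genes Btg2, Dusp1, Has1 and Zfp36 were higher in OTD and Pnpla3 and Actc1 lower. As the genes were picked with their values known, this says nothing of a link between element and direction. Of the 25 early response genes that passed, only 19 had a RefSeq promoter, and Egr1 was not among them. Of these 19, 2 held the cyclic AMP response element and 1 the serum response element. Searched on both strands over 250 bases before to 50 bases after the start, the cyclic AMP response element was found in 1.85% and the serum response element in 1.59% of 27025 promoters, and in 3.23% and 1.34% of the 8087 promoters of genes that passed. A RefSeq promoter was matched for only 334 of the 471 higher and 116 of the 172 lower genes, under 80% of either, so a comparison of motif shares between them was void and is not given.

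Genes of lipid-associated macrophages, the state macrophages take on around dying fat cells, had a median change of 0.996 over 20 genes that passed, with 10 past the fold (50%, as deposited 8), all higher. General macrophage markers had a median of 0.76 over 18 genes, with 7 past the fold (38.9%, as deposited 3), all higher. Markers of resident tissue macrophages had a median of -0.02 over 17 genes, 8 of them above 0, with 1 past the fold (5.88%, as deposited 0), which was higher. None of the 3 lists had a gene past the fold on the lower side.

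The largest differences among lipid-associated genes after Mmp12 were those of Gpnmb, a membrane glycoprotein of lysosome-rich cells, with 69.2 in OTD and 10.996 in YTD (change 2.55), Atp6v0d2, a subunit of the proton pump of lysosomes in macrophages and osteoclasts, with 7.55 in OTD and 0.781 in YTD (change 2.26), and Spp1, the secreted phosphoprotein osteopontin, with 49.1 in OTD and 9.61 in YTD (change 2.24). Gpnmb was higher still in both anagen libraries, with 233 in OAD and 239.9 in YAD. Clec7a, the fungal glucan receptor dectin-1 of myeloid cells, had 23.7 in OTD and 3.50 in YTD (change 2.45).

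Among general markers, Mpeg1, a pore-forming protein of macrophages, had 32.7 in OTD and 10.2 in YTD (change 1.59). Cd68, a glycoprotein of their endosomes, had 70.5 in OTD and 25.5 in YTD (change 1.43). Tyrobp, the signal adaptor DAP12, had 206 in OTD and 85.9 in YTD (change 1.249), and Lyz2, lysozyme, had 799 in OTD and 344 in YTD (change 1.21). Summed over 18 genes these markers stood at 1505 in OTD and 723 in YTD. The resident marker past the fold was Selenop, the selenium carrier that many other cells make, with 1046 in OTD and 469.8 in YTD (change 1.15).

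Lysosomal genes had a median of 0.53 over 32 genes, 31 of them above 0, with 4 past the fold (12.5%, as deposited 2), all higher in OTD. Ctss, the cathepsin that trims the invariant chain of MHC class II, had 196 in OTD and 58.7 in YTD (change 1.72). Ctsk, a cathepsin that cuts collagen, had 189 in OTD and 61.1 in YTD (change 1.61). Lipa, the acid lipase that frees cholesterol and fatty acids in lysosomes, had 44.4 in OTD and 18.9 in YTD (change 1.19). Genes of iron handling had a median of 0.25 over 18 genes, with 3 past the fold (16.7%, as deposited 3) on both sides. Tfrc, the transferrin receptor that takes iron up, on chr16:32608920-32632794, had the largest difference on the lower side among the named genes after Krtap19-4 and Sprr4, with 9.13 in OTD and 44.0 in YTD (4.81-fold lower, a change of -2.15). Slc11a1, an iron transporter of macrophage vesicles, was higher with 19.1 in OTD and 6.05 in YTD (change 1.51), and so was Cp, the ferroxidase ceruloplasmin, with 42.5 in OTD and 14.0 in YTD (change 1.54).

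Of 14 MHC class II presentation genes 8 passed, all above 0, with a median of 0.87 and 3 past the fold (37.5%, as deposited 1), all higher in OTD. H2-Aa, a class II chain, had 347 in OTD and 166 in YTD (change 1.06) and Cd83, of dendritic cells, had 5.11 in OTD and 2.01 in YTD (change 1.02). MHC class I genes that passed numbered 18, all above 0, with a median of 0.76 and 5 past the fold (27.8%, as deposited 1), all higher in OTD. B2m, the shared light chain of class I, had 2562 in OTD and 1166 in YTD (change 1.14). H2-M3 had 13.01 in OTD and 5.48 in YTD (change 1.11). H2-Q6 and H2-Q7 had 68.9 in OTD and 28.2 in YTD and 74.6 in OTD and 32.6 in YTD, but they are near-identical copies whose separate values are uncertain.

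Complement genes code for the serum cascade that tags particles for uptake. Of 18 genes that passed, 17 were above 0, with a median of 0.58 and 6 past the fold (33.3%, as deposited 5), all higher in OTD. C7, of the terminal pore, had 57.5 in OTD and 14.4 in YTD (change 1.93). C1ra and C1s1, the proteases of the first complex, had 45.3 in OTD and 16.8 in YTD and 112 in OTD and 44.8 in YTD. The C1q chains of the same complex were short of the fold, with changes of 0.48 for C1qa, 0.55 for C1qb and 0.46 for C1qc, and C6, also of the pore, did not pass the filter. These 4 genes were named after their values were seen.

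Interferon-stimulated genes had a median of 0.56 over 36 genes, 34 of them above 0, with 5 past the fold (13.9%, as deposited 1), all higher in OTD. Ifitm1, a membrane protein that hinders virus entry, had 78.0 in OTD and 32.3 in YTD (change 1.247). Xaf1 had 17.2 in OTD and 6.85 in YTD (change 1.22), Iigp1, an immune GTPase, had 51.8 in OTD and 22.3 in YTD (change 1.18), and Ifit2 had 12.5 in OTD and 5.36 in YTD (change 1.09). Most members were short of the fold.

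Small leucine-rich proteoglycans, which bind collagen fibrils and growth factors, had a median of 0.98 over 10 genes that passed, with 5 past the fold (50%, as deposited 3), all higher in OTD. Dcn, decorin, had 1015 in OTD and 334 in YTD (3.04-fold higher, a change of 1.60). Ogn, osteoglycin, had 114 in OTD and 44.4 in YTD (change 1.34), Lum, lumican, had 179 in OTD and 74.2 in YTD (change 1.26), and Ecm2 had 23.4 in OTD and 10.4 in YTD (change 1.10). Genes of the collagen fibrils themselves did not pass the fold. Fibrillar collagen genes had a median of 0.11 over 6 genes, which was -0.10 with the deposited FPKM and -0.04 with the median of ratios. Col3a1 had 383 in OTD and 330.0 in YTD and Col1a2 had 300.2 in OTD and 254 in YTD. Basement membrane genes had a median of -0.07 over 13 genes with none past the fold, and the highest of them, Lamc1 and Lamb2, had 77.0 in OTD and 81.1 in YTD and 52.7 in OTD and 48.6 in YTD. Elastic fibre and microfibril genes had a median of 0.50 over 18 genes, 16 of them above 0 and none past the fold, with 70.4 in OTD and 39.2 in YTD for Efemp1 and 131 in OTD and 96.0 in YTD for Ltbp4.

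Of the 15 largest differences on the higher side, 2 genes act on hyaluronan. No list was made for it, so they say nothing of other hyaluronan genes. Has1, a hyaluronan synthase of the cell membrane, had 5.36 in OTD and 0.244 in YTD (change 2.35), and Tnfaip6, which links hyaluronan to heavy chains of a serum protein, had 16.9 in OTD and 2.49 in YTD (change 2.36). Both were at or under 2.5 in the other 3 libraries, with 0.271 in OAD and 0.189 in YAD for Has1 and 2.36 in OAD and 2.33 in YAD for Tnfaip6. They thus passed the filter only through OTD. Has1 was near the bottom of the range in YTD, where 3 fragments would give a level of about 0.131, so the size of its change is uncertain.

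Markers of fibroblasts and fat progenitors were above 0 in 21 of 21 genes, with a median of 0.59 and 2 past the fold (9.52%, as deposited 1). These were Icam1, an adhesion molecule that marks committed fat progenitors, with 39.4 in OTD and 15.2 in YTD (change 1.31), and Pi16, a marker of a progenitor state in the fibrous layer of fat, with 71.2 in OTD and 34.4 in YTD (change 1.03). Endothelial markers were above 0 in 19 of 19 genes, with a median of 0.74 and 4 past the fold (21.1%, as deposited 1), all higher in OTD. Emcn, a surface mucin of capillaries and veins, had 81.4 in OTD and 31.2 in YTD (change 1.36), and Aqp1, a water channel, had 833 in OTD and 386 in YTD (change 1.11). Tek, the receptor of angiopoietins, had 33.5 in OTD and 15.6 in YTD, and Cldn5, a tight junction protein of vessels, had 171 in OTD and 82.8 in YTD. Of these 4, Emcn alone was also past the fold with the FPKM as deposited. Lymphatic markers had a median of 0.74 over 6 genes, with 2 past the fold (33.3%, as deposited 2). These were Ccl21a, which draws dendritic cells into lymph vessels, with 88.6 in OTD and 23.2 in YTD (change 1.89), and Mmrn1, with 24.6 in OTD and 6.13 in YTD (change 1.84).

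Schwann cell and myelin genes, of nerves, were above 0 in 15 of 15 genes that passed, with a median of 0.68 and 2 past the fold (13.3%, as deposited 1). These were transcription factors of the myelin programme, Egr2 with 12.5 in OTD and 3.57 in YTD (change 1.56) and Sox10 with 14.5 in OTD and 6.32 in YTD (change 1.08). Egr2 is an early response gene too, and Sox10 is also on the melanocyte list, where it was 1 of 4 genes that passed and the 1 past the fold, with a list median of 0.54. Smooth muscle and pericyte genes had a median of 0.38 over 15 genes, with 4 past the fold (26.7%, as deposited 4). These were contractile genes and all higher, with 391.5 in OTD and 161 in YTD for Acta2 (change 1.28), 414 in OTD and 167 in YTD for Tagln (change 1.31), 11.5 in OTD and 2.96 in YTD for Cnn1 (change 1.65) and 10.2 in OTD and 3.37 in YTD for Actg2 (change 1.36), while 5 members, of which Des also belongs to skeletal muscle, were under 0.

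Few markers of lymphocytes and neutrophils passed. Of 16 T cell and natural killer cell genes matched, 2 passed with none past the fold, and these were Thy1, which fibroblasts also make, with 72.2 in OTD and 41.7 in YTD and Ccl5 with 9.67 in OTD and 11.5 in YTD. No B cell or plasma cell marker passed, and their summed level over 10 genes was 10.8 in OTD and 4.65 in YTD. Of 16 neutrophil genes 3 passed, with S100a9 and Lcn2, an iron-binding protein of neutrophils that fat also makes, past the fold. Lcn2 had 27.6 in OTD and 6.996 in YTD (change 1.84). The neutrophil markers Ly6g, Mpo, Ngp and Ltf, picked out after their values were seen, were listed at 0 in both libraries. Mast cell genes had a median of 0.78 over 6 genes, with 1 past the fold (16.7%, as deposited 0), Hdc, the enzyme that makes histamine, at 10.4 in OTD and 3.78 in YTD (change 1.26). Red cell genes had a median of 0.56 over 7 genes with none past the fold, and the haemoglobin genes Hbb-bs and Hba-a2 had 557 in OTD and 369 in YTD and 331 in OTD and 235 in YTD.

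The plot of gene lists orders the lists by their median change. Early response genes stand at the top, followed by macrophage, proteoglycan and antigen presentation genes, and ion channel, hair shaft and muscle genes at the bottom. Within most lists the members were spread over more than 1 on the log2 scale, wider than the distance between neighbouring medians.

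**Figure D3:**
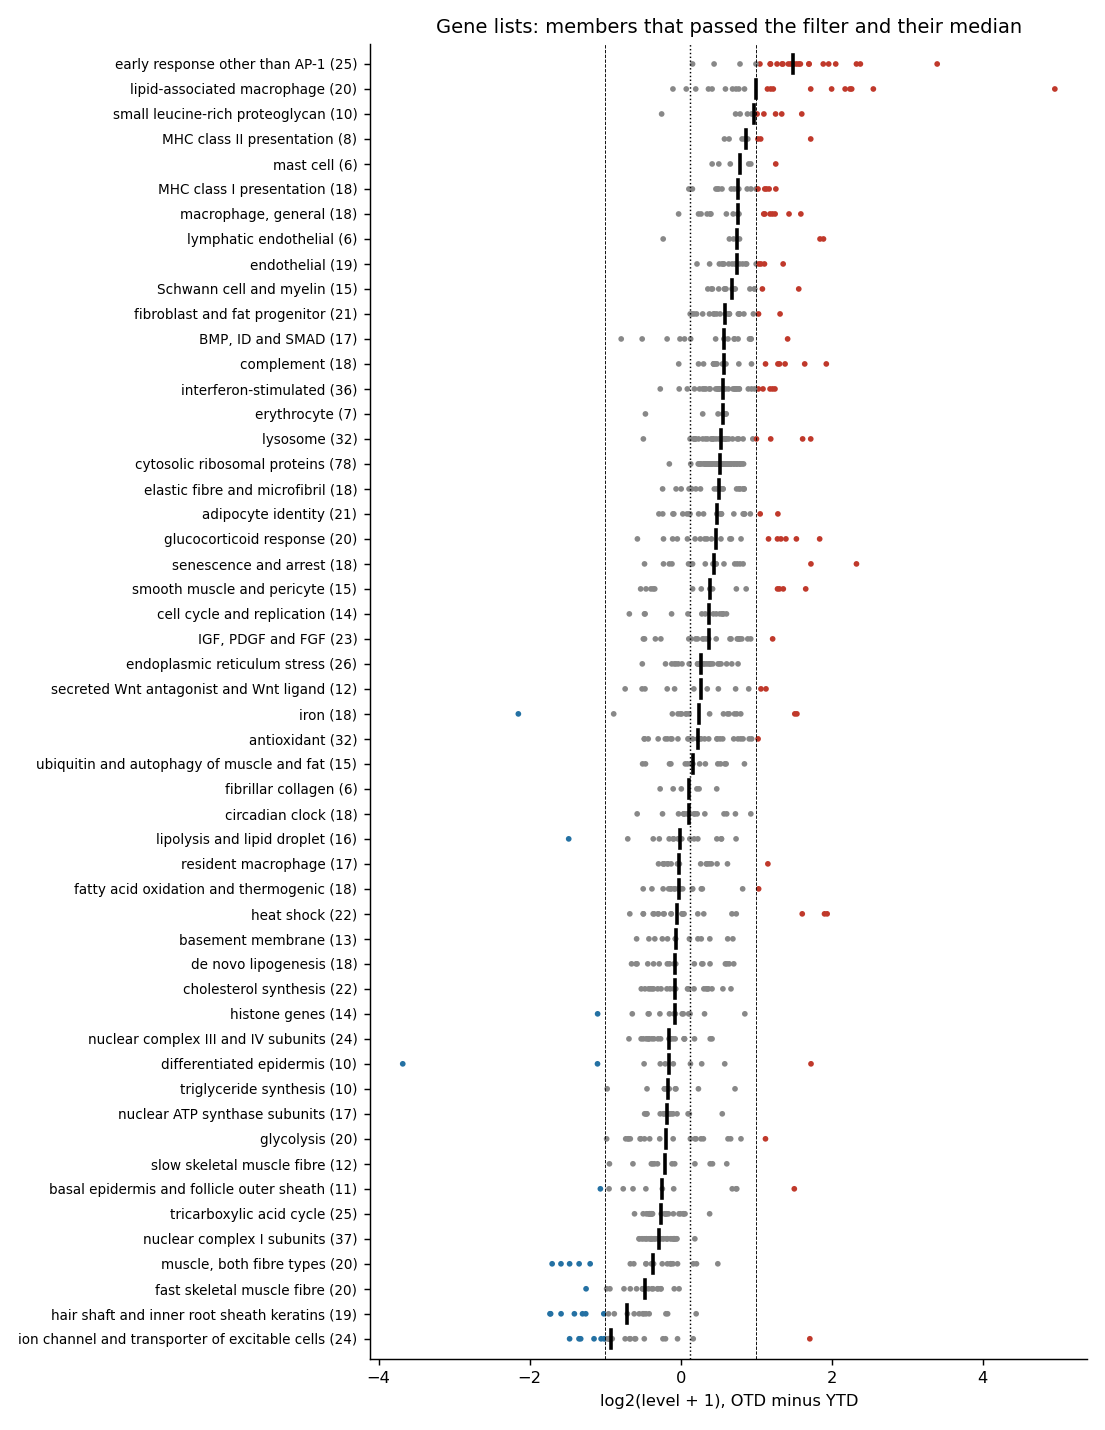
Change of each gene that passed (log2(level + 1), OTD minus YTD) in the lists with at least 6 such genes, ordered by the list median (black bar), with the number of genes in brackets, the median of all genes as a dotted line and dashed lines at 1 and -1. Points past the fold are red (higher in OTD) or blue (lower); the medians run from 1.49 for early response genes to -0.92 for ion channel genes.

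Adipocyte identity genes had a median of 0.48 over 21 genes that passed, 17 of them above 0, with 2 past the fold (9.52%, as deposited 1). These were Pck1, the enzyme that makes glycerol phosphate from small carbon sources in fat, with 96.8 in OTD and 39.1 in YTD (change 1.29), and Tshr, the thyrotropin receptor, with 6.26 in OTD and 2.50 in YTD (change 1.05). Lipolysis and lipid droplet genes had a median of -0.01 over 16 genes, with 1 past the fold (6.25%, as deposited 1), Pnpla3, a lipase relative that feeding and lipogenic signals induce, at 7.28 in OTD and 22.1 in YTD (change -1.48). De novo lipogenesis genes had a median of -0.08 over 18 genes and triglyceride synthesis genes one of -0.17 over 10 genes, with none past the fold in either. Within lipogenesis the genes with the highest levels went opposite ways, as Scd1, the desaturase that makes oleate, had 1319 in OTD and 811 in YTD (change 0.70) and Thrsp, a lipogenic nuclear protein, had 261 in OTD and 409.9 in YTD (change -0.65). In triglyceride synthesis, Gpd1, which makes glycerol phosphate from glucose, was just short of the fold with 219 in OTD and 430.2 in YTD (change -0.97), and Dgat2, which adds the last fatty acid, had 267 in OTD and 280.2 in YTD.

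Fatty acid oxidation and thermogenic genes had a median of -0.03 over 18 genes, with 1 past the fold (5.56%, as deposited 0), Cpt1a, which admits fatty acids to mitochondria outside muscle, at 21.8 in OTD and 10.2 in YTD (change 1.03). Cholesterol synthesis genes had a median of -0.08 over 22 genes with none past the fold, and Insig1 and Fdft1 had 64.1 in OTD and 47.9 in YTD and 49.1 in OTD and 38.7 in YTD. Glycolysis genes had a median of -0.19 over 20 genes, with 1 past the fold (5%, as deposited 0). This was Slc2a3, a glucose transporter best known in neurons, which was higher with 8.84 in OTD and 3.52 in YTD (change 1.12). Of the 20 glycolysis genes, 9 were above 0. With the muscle lists left out before rescaling, the list median was -0.08 and that of all genes 0.03. The part of muscle in these values was not tested.

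No nuclear gene of the respiratory chain or the tricarboxylic acid cycle was past the fold, and the median of each list was below 0. Complex I subunits had a median of -0.29 over 37 genes, of which 1 was above 0. Complex III and IV subunits had a median of -0.15 over 24 genes, 6 of them above 0. ATP synthase subunits had one of -0.18 over 17 genes, 3 of them above 0, and genes of the tricarboxylic acid cycle one of -0.26 over 25 genes, 4 of them above 0. Of their members with the highest mean levels, Ndufa4 had 2032 in OTD and 2144 in YTD, Cox6c had 2535 in OTD and 2806 in YTD, Atp5k had 1877 in OTD and 2070.1 in YTD, Ndufa3 had 1799 in OTD and 1863 in YTD and Mdh2 had 556 in OTD and 727 in YTD. Cox8b, a subunit found in muscle and brown fat, was at 3782 in OTD and 4927 in YTD (change -0.38), and Atp5e was at 3589.5 in OTD and 4951 in YTD (change -0.46). The medians of the muscle lists were below 0 too, and their part in these values was not tested.

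Of 78 cytosolic ribosomal protein genes, 77 were above 0 and none was past the fold, with a median of 0.52 and a range of -0.15 to 0.83. Their summed level was 159378 in OTD and 112758 in YTD. Rplp1 had 8069 in OTD and 6752 in YTD (change 0.26) and Rps29 had 4628 in OTD and 2763 in YTD (change 0.74). The median of the family in anagen was -0.07.

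The 3 skeletal muscle lists had medians below 0, and most of their members were short of the fold. Fast fibre genes had a median of -0.48 over 20 genes, none above 0, with 1 past the fold (5%, as deposited 1), Casq1, the calcium store protein of the sarcoplasmic reticulum, at 942 in OTD and 2247 in YTD (change -1.25). Slow fibre genes had a median of -0.21 over 12 genes, 4 of them above 0 and none past the fold, with 1865 in OTD and 2374 in YTD for Mb, the oxygen store myoglobin, and 429.8 in OTD and 828 in YTD for Sln, which slows the calcium pump. Genes of both fibre types had a median of -0.37 over 20 genes, 3 of them above 0, with 5 past the fold (25%, as deposited 5), all lower. Ttn, titin, the spring of the sarcomere, had 46.9 in OTD and 143 in YTD (change -1.59). Ryr1, the calcium release channel, had 100.1 in OTD and 279 in YTD (change -1.47), and Mybph had 71.6 in OTD and 184 in YTD (change -1.35).

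Ion channels and transporters of excitable cells had a median of -0.92 over 24 genes, with 7 past the fold (29.2%, as deposited 7), 6 on the lower side and 1 on the higher. Jph2, which ties the sarcoplasmic reticulum to the cell membrane, had 150.2 in OTD and 384 in YTD (change -1.35). Kcnc1, a potassium channel, had 9.27 in OTD and 24.7 in YTD (change -1.32). The exception was Pln, phospholamban, of heart, slow muscle and smooth muscle, with 19.3 in OTD and 5.20 in YTD (change 1.71). Acta1, the most abundant gene of the filaments, had a change of -0.39. Other large differences at a level of 100 or more were those of Xirp2, an actin-binding muscle protein, with 80.3 in OTD and 235 in YTD (change -1.54), Actc1, cardiac actin, with 62.2 in OTD and 216 in YTD (change -1.78), and Wnk1, a kinase that controls ion transport, with 40.5 in OTD and 143 in YTD (3.52-fold lower, a change of -1.79). Many of these genes are long, and their lengths are given with those of all genes further on.

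Hair shaft and inner root sheath genes had a median of -0.71 over 19 genes that passed, with 7 past the fold (36.8%, as deposited 7), all lower in OTD. These genes are made by the growing follicle, and in telogen they were at a small part of their anagen levels. Krt31, a keratin of the hair cortex, had 6.32 in OTD and 20.9 in YTD in telogen (change -1.58) and 1603 in OAD and 2322 in YAD in anagen. Krt33b had 5.16 in OTD and 19.3 in YTD (change -1.72) and Krt83 had 5.22 in OTD and 19.7 in YTD (change -1.73). S100a3, a calcium-binding protein of the hair cuticle, had 74.1 in OTD and 198 in YTD in telogen (change -1.41) and 6637 in OAD and 7333 in YAD in anagen. Krt31 and S100a3 were thus lower in OAD than in YAD, but the median of the 19 genes in anagen was above 0, at 0.19. Of the 15 largest differences on the lower side, Krtap19-4, Krtap12-1, Krtap16-1 and Krtap10-4 are keratin-associated proteins of the hair shaft, and copies of these genes are so alike that separate values are uncertain. Krtap19-4 had 16.2 in YTD and was listed at 0 in OTD, and Krtap12-1 had 1.60 in OTD and 9.58 in YTD, Krtap16-1 0.950 in OTD and 5.51 in YTD and Krtap10-4 2.15 in OTD and 9.53 in YTD.

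Differentiated epidermis genes had a median of -0.15 over 10 genes that passed, with 3 past the fold (30%, as deposited 3), 1 higher and 2 lower. Sprr4, of the cornified envelope, had 11.8 in YTD and was listed at 0 in OTD. Asprv1, a skin protease, had 3.84 in OTD and 9.38 in YTD (change -1.10), whereas Krtdap, a secreted protein of differentiating keratinocytes, had 26.1 in OTD and 7.21 in YTD (change 1.72). The defining markers Krt1 and Krt2 were at or under 0.0747 in both libraries, and Krt10 was at 2.36 in OTD and 2.74 in YTD. Basal epidermis and outer sheath genes had a median of -0.24 over 11 genes, with 2 past the fold (18.2%, as deposited 2). These were Krt15, of the stem cell zone of the follicle, lower at 3.75 in OTD and 8.94 in YTD (change -1.06) and Krt79, of the duct of the sebaceous gland, higher at 10.96 in OTD and 3.22 in YTD (change 1.503). Of 14 sebaceous gland genes matched, 4 passed, with a median of 0.97 and 2 past the fold (50%, as deposited 1). These were Krt79 and Soat1, which esterifies cholesterol, with 8.23 in OTD and 3.55 in YTD (change 1.02). Both passed the filter only through OTD, which favours the share and the median of so short a list.

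The remaining genes among the 15 largest differences on the lower side were Mdga1, a cell adhesion protein, with 4.50 in OTD and 20.2 in YTD, Zfp385c with 1.13 in OTD and 6.57 in YTD, Tmem267 with 3.63 in OTD and 13.8 in YTD and Mup15, a major urinary protein with near-identical copies, with 1.62 in OTD and 7.56 in YTD. Wfdc21, a protein with an antiprotease domain and a level of 100 or more, had 101 in OTD and 282 in YTD (change -1.47).

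Glucocorticoid response genes had a median of 0.47 over 20 genes, with 6 past the fold (30%, as deposited 5), all higher. Lcn2 led them, followed by Dusp1, a phosphatase that shuts off MAP kinases and is an early response gene too, with 249.7 in OTD and 85.8 in YTD (change 1.53), Errfi1, a brake on the EGF receptor, with 89.1 in OTD and 33.3 in YTD (change 1.39), and Angptl4, an inhibitor of lipoprotein lipase, with 33.5 in OTD and 12.8 in YTD (change 1.33). Heat shock genes had a median of -0.06 over 22 genes, with 3 past the fold (13.6%, as deposited 3), all higher. These were Hspa1a with 44.9 in OTD and 10.97 in YTD (change 1.94), Hspa1b with 48.4 in OTD and 12.2 in YTD (change 1.90) and their co-chaperone Dnajb1 with 60.5 in OTD and 19.2 in YTD (change 1.61). Hspa1a and Hspa1b are near-identical copies, and their separate values are uncertain.

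Endoplasmic reticulum stress genes had a median of 0.27 over 26 genes with none past the fold, and Calr and Atf4 had 137 in OTD and 140.3 in YTD and 196 in OTD and 166 in YTD. Antioxidant genes had a median of 0.23 over 32 genes, with 1 past the fold (3.12%, as deposited 0), Prdx4, a peroxidase of the endoplasmic reticulum, at 48.8 in OTD and 23.5 in YTD (change 1.02). Circadian clock genes had a median of 0.11 over 18 genes, which was -0.09 with the deposited FPKM and -0.04 with the median of ratios, and none was past the fold. Their outputs Dbp and Tef, which swing widely over the day in most tissues, had 140.2 in OTD and 131 in YTD and 147 in OTD and 174 in YTD. Genes of ubiquitin and autophagy had a median of 0.16 over 15 genes, which was -0.06 with the deposited FPKM, with none past the fold, and Ubb and Sqstm1 had 1174 in OTD and 936 in YTD and 533 in OTD and 448 in YTD.

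Senescence and arrest genes had a median of 0.45 over 18 genes, with 2 past the fold (11.1%, as deposited 2), both higher and Btg2 1 of them. Cell cycle and replication genes that passed were 14 of 40, with a median of 0.38 and none past the fold, and Pcna and Stmn1 had 57.0 in OTD and 45.3 in YTD and 37.6 in OTD and 35.1 in YTD. Histone genes had a median of -0.08 over 14 genes, with 1 past the fold (7.14%, as deposited 1), Hist1h4i, at 20.7 in OTD and 45.5 in YTD (change -1.10). Genes of the Y chromosome were present in both libraries, with 61.8 in OTD and 55.1 in YTD for Eif2s3y and 40.9 in OTD and 38.0 in YTD for Ddx3y, and the median of the 3 that passed on the list of X inactivation and Y-linked genes was 0.16, which was -0.05 with the deposited FPKM.

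Lists of genes of signals that are known to act on HFs follow. Not all members code for secreted proteins, as ID and SMAD proteins work inside the cell. Genes of secreted Wnt antagonists and Wnt ligands had a median of 0.26 over 12 genes, with 2 past the fold (16.7%, as deposited 0), both antagonists, Sfrp4 with 15.7 in OTD and 6.66 in YTD (change 1.13) and Dkk3 with 8.92 in OTD and 3.75 in YTD (change 1.06). BMP, ID and SMAD genes had a median of 0.58 over 17 genes, with 1 past the fold (5.88%, as deposited 1), Id4, which holds back helix-loop-helix factors on BMP signals, at 27.1 in OTD and 9.54 in YTD (change 1.41). IGF, PDGF and FGF genes had a median of 0.37 over 23 genes, with 1 past the fold (4.35%, as deposited 0), Fgf7, the keratinocyte growth factor, at 14.2 in OTD and 5.55 in YTD (change 1.22).

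Genes past the fold in 1 direction stood next to each other at 9 places where at least 3 neighbours that passed did so. Among them were Hspa1b, Hspa1a and Gm20481 on chr17:34956436-34972156 and Ch25h, Lipa and Ifit2 on chr19:34473786-34576419, all higher. Plscr1, Plscr2 and Plscr4, of the phospholipid scramblase family, on chr9:92249750-92492456 were higher with changes between 1.24 and 1.61. A run of 6 keratin-associated genes on chr10:77715807-77827095 was lower with changes between -2.64 and -1.47, and Mup11, Mup14 and Mup15 on chr4:60658466-61439743 were lower with changes between -1.71 and -1.09. Coordinates are those of the deposited files, which use GRCm38. The Hspa1, keratin-associated and Mup runs hold like genes whose reads can be shared. How many runs the same number of genes would form if placed at random was not worked out.

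The lengths in the files are coding lengths, as 98.4% of those of the genes that passed can be divided by 3. With genes in 10 bins of about equal size by coding length, in the bin of the longest, 3258 bases or more, the median change was -0.01, 1.62% were higher and 2.96% lower. In the bin of the shortest, under 486 bases, the median was 0.07, 7.14% were higher and 2.70% lower. In the 8 bins between, the medians ran from 0.10 to 0.17 with no steady course. Without the muscle lists the median of the longest bin was 0.0036. The coding lengths of Ttn, Ryr1, Xirp2 and Wnk1 are 105642, 15108, 11355 and 7908 bases, all in the longest bin.

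By the GC content of the longest coding transcript of each gene (GENCODE M21), the median change went from 0.26 in the bin with the lowest GC to -0.04 in the bin with the highest. The median GC was 48.9% for the higher genes, 54.6% for the lower genes and 50.5% for all genes with a coding transcript, which are 447, 149 and 10180 genes. With each gene's change taken relative to the median of its GC bin, 316 genes were higher and 179 lower. Of the 471 higher genes 313 were among these, as were 141 of the 172 lower genes. The part of length and GC in the differences was not tested.

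**Figure D4:**
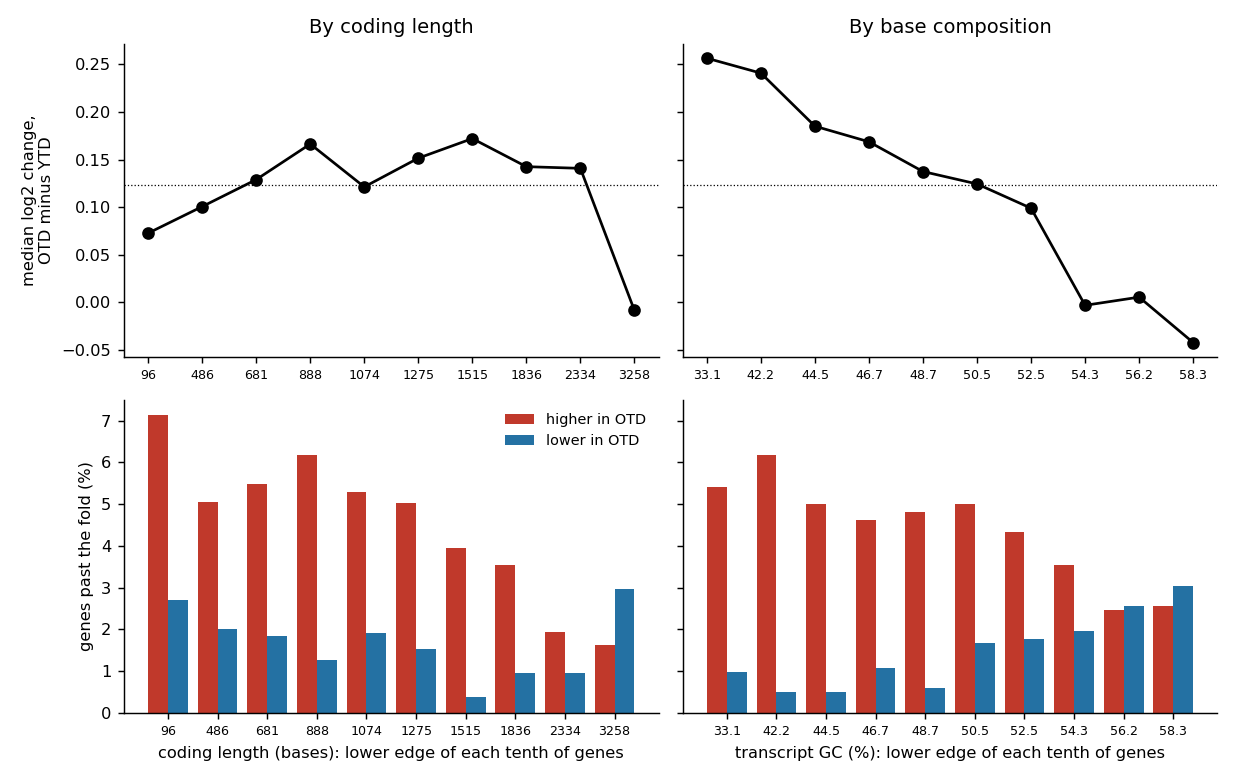
Median change (top, log2, OTD minus YTD) and share of genes past the fold (bottom, %) in 10 bins of genes by coding length (left, bases) and by transcript GC (right, %), with the lower edge of each bin on the axis and the median of all genes dotted. The median drops in the bin of the longest genes to -0.01, and it goes from 0.26 to -0.04 from low to high GC.

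The same ages differed less in anagen. By the same rule 168 of 10706 genes, 1.57%, differed by at least 1 between OAD and YAD, against 6.17% in telogen, and the median absolute deviation of the change was 0.144 against 0.307. Of the 471 genes higher in OTD, 259 passed in anagen, where 11 were higher and 5 lower in OAD. Of the 172 lower in OTD, 122 passed in anagen, where none was higher and 9 were lower in OAD. These counts are to be read beside those of all 9130 genes that passed in both phases. Of these, 33 were higher and 51 lower in OAD. Over the 9130 genes that passed in both phases, the changes had a Pearson correlation of 0.06 and a Spearman correlation of -0.00, a description across genes of 4 libraries of which the phases share none.

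The genes higher in old dWAT in both phases were H2-Q7, Sorbs2, Krt79, Plac8, Defb6, Atf3, Cytl1, S100a9, Fos and 2 loci outside the annotation. Cytl1 had 26.6 in OAD and 7.38 in YAD in anagen, a change of 1.72 beside 2.87 in telogen. S100a9 had 16.8 in OAD and 2.13 in YAD, a change of 2.51 beside 3.41. Atf3 had 12.7 in OAD and 4.37 in YAD, a change of 1.35 beside 2.05. Apart from 1 locus outside the annotation, the genes lower in both were 2 muscle genes, Actc1 and Mybph, and 6 genes of the keratin-associated protein family or of its cluster on chromosome 10. Actc1 had 4.74 in OAD and 19.7 in YAD in anagen, a change of -1.85 beside -1.78. Of other leading genes of telogen that passed in anagen, the changes there were -0.04 for Gpnmb, 0.26 for Inmt and -0.29 for Tfrc. Mmp12 and Apold1 did not reach a level of 5 in either anagen library.

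Medians of lists are given over the members that passed in both phases. The median was 0.09 in anagen and 1.49 in telogen over 23 early response genes, -0.17 and 0.75 over 16 lipid-associated macrophage genes, and -0.48 and 1.011 over 7 small leucine-rich proteoglycans. It was -1.42 and 0.11 over 6 fibrillar collagens and 0.20 and -0.48 over 20 fast fibre genes. Over 19 hair shaft and inner root sheath genes it was 0.19 and -0.71. The median of all genes that passed was -0.16 in anagen and 0.12 in telogen. Col1a2 had 32.7 in OAD and 132 in YAD in anagen, a change of -1.98 beside 0.24. The difference between the phases was not tested, as there is 1 library on each side.

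**Figure D5:**
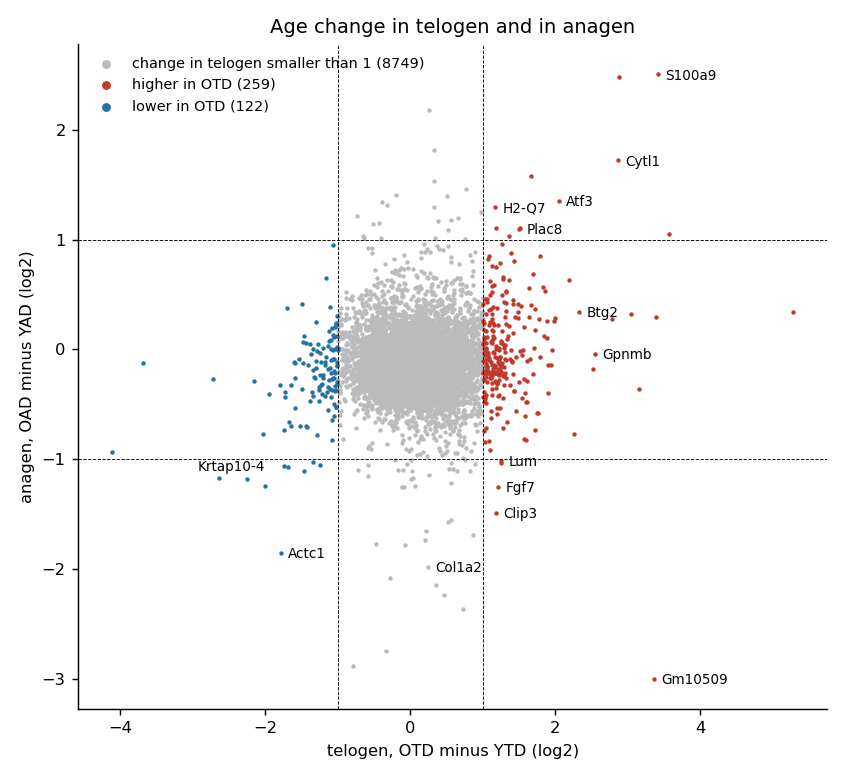
Change with age in anagen (OAD minus YAD, log2) against that in telogen (OTD minus YTD, log2) for the 9130 genes that passed in both, each point 1 gene, coloured by the call in telogen, with dashed lines at 1 and -1. Of the genes past the fold in telogen, 11 lie in the upper right, 9 in the lower left and 5 in the lower right corner. Of all the genes shown, 33 were higher and 51 lower in anagen.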

How the data were processed

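RNA of dWAT was sequenced in 4 libraries, OTD, YTD, OAD and YAD, on an Illumina HiSeq from RNA with an integrity number above 7.5. The authors deposited FPKM per gene with its position on GRCm38 and a length. The submitters' processing notes name bcl2fastq and TopHat2, and the counting tool and annotation are not given in the sources used here. No read counts were used. Depth, estimated from the value that 1 fragment gives in genes of 2000 to 4000 bases, came to about 2.09e+07 fragments for OTD and 1.91e+07 for YTD, and to 2.51e+07 for OAD and 2.29e+07 for YAD.

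From these FPKM, the mitochondrial chromosome (13 genes) was dropped, each library was rescaled to a sum of 1000000, and genes with a level of 5 or more in either library were compared as log2(level + 1). A gene is past the fold at a change of at least 1 in size. No test was run, as each group is a single library. The genes named are the 15 largest differences in each direction, the 8 largest at a level of 100 or more, and per list up to 4 past the fold or else the 2 with the highest mean level, leaving out cytokines and AP-1 genes and loci with no gene name of their own. Some genes that the rule names are not reported here. The genes compared, the lists and the rules were chosen with earlier results of these data known. Sequences are from RefSeq. The alternatives were other filters, scalings, pseudocounts and thresholds. The change relative to genes of like GC, a narrower range of coding lengths the change less the median of all genes, and the members of lists past the fold with the FPKM as deposited, were added after the values were seen. The steps were tested on simulated data. Python 3.11.15, numpy 2.4.6, pandas 2.3.3 and matplotlib 3.10.9 were used.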

Additional observations from a re-analysis of the deposited data

Results flagged for a closer look

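For 5 genes the old library lay above the young one by at least 1 on the log2 scale in telogen and below it by at least 1 in anagen, so that the ages went opposite ways in the 2 phases. They were 5 of the 259 genes higher in OTD that passed in anagen, where 51 of all 9130 genes were lower in OAD. With 1 library on each side the difference between phases was not tested. For Clip3, which binds microtubules and vesicles, the levels were 12.1 in OTD and 4.78 in YTD and 1.20 in OAD and 5.18 in YAD, changes of 1.18 and -1.49 that lie 2.67 apart. For Fgf7, the keratinocyte growth factor, they were 14.2 in OTD and 5.55 in YTD and 3.21 in OAD and 9.02 in YAD, changes of 1.22 and -1.25 that lie 2.47 apart. For Tyrobp, a signal adaptor of myeloid cells, they were 206 in OTD and 85.9 in YTD and 9.23 in OAD and 19.96 in YAD, changes of 1.249 and -1.03 that lie 2.28 apart. For Lum, the proteoglycan lumican, they were 179 in OTD and 74.2 in YTD and 8.95 in OAD and 19.1 in YAD, changes of 1.26 and -1.01 that lie 2.27 apart. Gm10509 had 9.26 in OTD and 6.99 in YAD and was listed at 0 in YTD and OAD, and on the log2(level + 1) scale its changes lie 6.36 apart.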

How the results depend on the processing

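No paired analysis was possible because each group has 1 library, and no library could be left out for the same reason. Of the counts of genes past the fold, 471 higher and 172 lower, those that moved by more than 1.5 times were 204 higher with the FPKM as deposited, 313 higher and 266 lower with the median of ratios, 127 higher and 45 lower at a log2 change of at least 1.5, and 270 lower both with a level of 1 or more in either library and with no filter on low values. A pseudocount of 0.1 gave 609 higher and 204 lower genes, a mean level of 5 or more 393 and 147, a filter on the deposited FPKM 379 and 151, and a narrower range of coding lengths 424 and 132. Of 57 lists with a value, 34 had a median above that of all genes. The medians of 4 lists, fibrillar collagen, circadian clock, ubiquitin and autophagy, and X inactivation and Y-linked genes, changed sign with the scaling. Under at least 1 setting 10 lists changed side of the median of all genes, among them resident macrophage, iron, Wnt, lipolysis, lipogenesis, basement membrane and differentiated epidermis genes. Of the 116 named genes past the fold, 85 were past it among 109 that passed with the FPKM as deposited and 96 among 115 with the median of ratios. Of the 463 genes with a mean level under 5, 16.8% were higher and 5.40% lower. Such a gene reached 5 in only 1 library, so the filter itself favours a large difference there. The part of depth in these shares was not tested.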
